A study of Mus musculus with 2 samples.

Results

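The genes described here are the amino-acid transporters of 7 solute carrier (Slc) families, taken from an RNA sequencing table of mouse pancreatic islets. Members were chosen by their symbols alone, as every row whose symbol names a numbered member of the Slc1, Slc3, Slc6, Slc7, Slc36, Slc38 or Slc43 family. The choice gave 56 of 17245 genes, and all 56 matched a protein-coding gene of RefSeq on mouse genome build GRCm38.p6. The study compared islets of mice labelled as a β-cell knockout of cGAS, the cytosolic DNA sensor (KO), with islets of wild-type mice (WT), with 1 library per genotype. The promoter that drove the deletion, the deleted exons, and the age, sex and number of the mice were not stated in the labels. Islets were picked by hand after collagenase digestion and then cultured, and they hold β-cells, other endocrine cells, vessels and immune cells together.

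Amino-acid carriers move substrates across the plasma membrane or out of lysosomes and vesicles. Slc7 light chains work only when joined by a disulfide bond to an Slc3 heavy chain, which brings them to the cell surface. Slc38 and Slc6 carriers draw amino acids into the cell with sodium, while most Slc7 light chains and Slc43 carriers exchange or equilibrate them without it. In β-cells leucine, glutamine and arginine are known to add to insulin secretion, and amino-acid supply also feeds the growth kinase complex mTORC1. The families include carriers of other substrates, such as taurine, creatine and monoamines in Slc6 and nucleobases in Slc43, and the symbol Slc7a6os, which belongs to a neighbour of Slc7a6 that encodes no transporter.

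Both libraries are set side by side without replicates, so no difference below has a replicate check and none was tested. Cgas, the targeted gene, was at 0.521 FPKM (reads per 1000 bases of gene and per 1000000 reads) in the library labelled KO, against 0.205 FPKM in the library labelled WT, from at least 31 and 16 reads. The ratio was 2.545 (1.35 to 4.98). Because Cgas was not lower, the libraries are called by their labels throughout. Whether the labels are exchanged, the deletion leaves most reads in place, or cells other than β-cells supply the reads was not tested. Every direction below holds only for the labels as given. Read totals recovered from the values were 14537660 (library labelled KO) and 19097001 (WT). Intervals given with ratios are exact 95% intervals for the counting of reads only, and the spread between animals is unknown. Cell-type markers differed between the libraries. All 12 endothelial markers were higher in the library labelled KO (summed 842 against 367 FPKM), as were all 12 macrophage and dendritic-cell markers (384 against 166 FPKM). The 18 acinar markers summed to 141 against 2187 FPKM. Among them the trypsinogen Prss1 was near 0 in both libraries, listed at 0 in the library labelled KO, against 0.0649 FPKM in WT. Ductal markers summed to 376 against 297 FPKM, fibroblast and pericyte markers to 219 against 114 FPKM, and glial markers to 28.0 against 19.6 FPKM. Of the lymphocyte markers only Cd52 (19.6 against 8.02 FPKM) and Cd79a (2.68 against 7.11 FPKM) were expressed, in opposite directions. Delta and PP cell markers summed to 17507 against 10744 FPKM. Of 10 β-cell markers 7 were lower, with 4 past 2-fold, while Ins1, Mafa and Ucn3 were higher and the sum was 437084 against 396314 FPKM. The 8 expressed α-cell markers had a median log2 difference of -0.04. The part of cell makeup in any value below was not tested, and in whole islets fewer cells of a type and less RNA per cell cannot be told apart.

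A member was counted as expressed at 1 FPKM or more in either library, which held for 31 of the 56. Together all members summed to 457 FPKM in the library labelled KO, against 571 FPKM in the library labelled WT, or 0.0605% and 0.0837% of all listed FPKM. The insulin genes Ins1 and Ins2 alone took 55.6% and 53.4% of that total. The 4 highest members held 41.3% of the members' sum in the library labelled KO, against 43.7% in WT.

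Slc38a10 had the highest level in both libraries, at 62.2 FPKM in the library labelled KO, against 79.8 FPKM in the library labelled WT. Below it, the order differed. In the library labelled KO it was followed by the cationic carrier Slc7a2 at 50.6 FPKM, the system A carrier Slc38a4 at 40.3 FPKM and the nucleobase carrier Slc43a3 at 35.5 FPKM. In the WT library Slc38a4 came next at 71.6 FPKM, then Slc7a2 at 53.0 FPKM and the lysosomal carrier Slc7a14 at 44.9 FPKM. Slc43a3 ranked 4 by FPKM in the library labelled KO, against 11 in WT, Slc7a14 ranked 9 and 4, and Slc7a8 ranked 12 and 6. Some neighbours in the order did not differ beyond counting error. In the library labelled KO the intervals of Slc6a17 (14.7 to 16.3 FPKM), Slc7a5 (14.3 to 16.5 FPKM) and Slc7a8 (13.9 to 15.3 FPKM) overlapped. In the WT library those of Slc6a6 (36.7 to 38.8 FPKM) and Slc7a8 (35.7 to 37.7 FPKM) did.

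**Figure D1:**
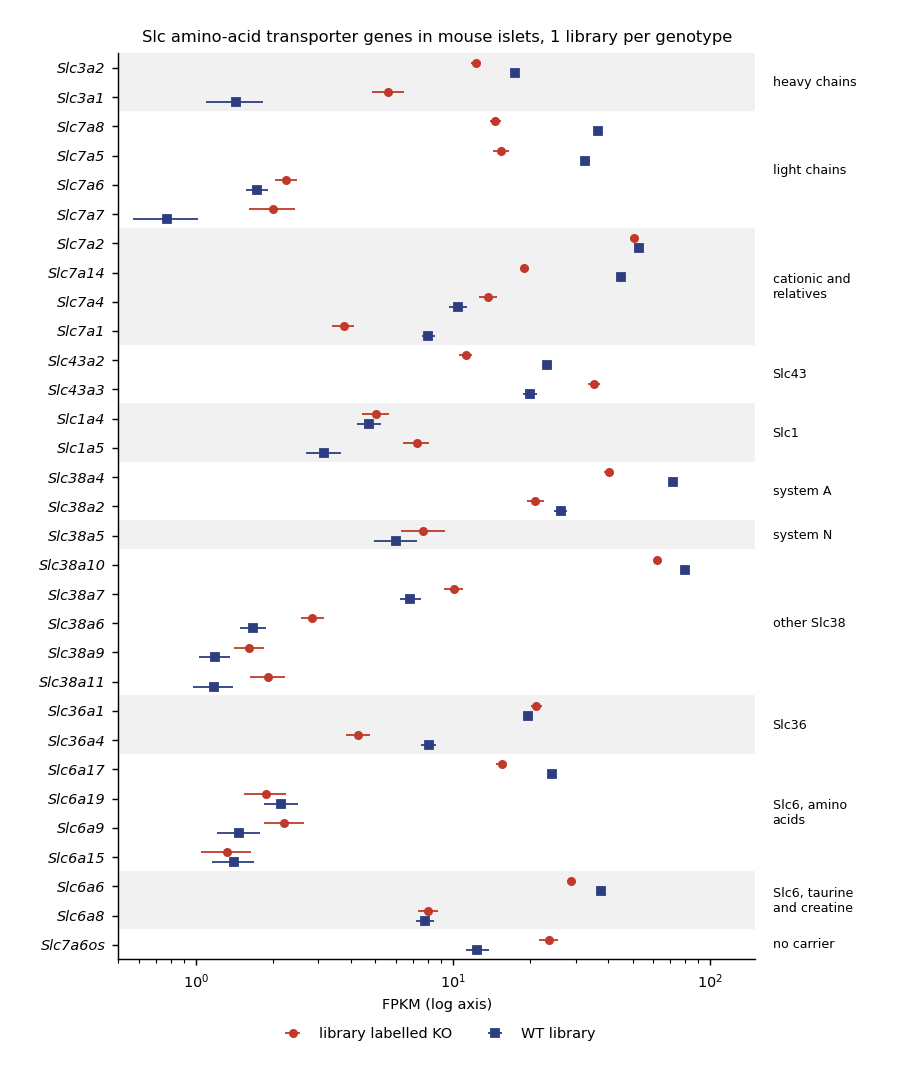
Level of each of the 31 expressed members in FPKM (log axis), with circles for the library labelled KO and squares for the WT library, ordered by role. Bars are exact 95% counting intervals. Slc38a10 is the furthest to the right in both libraries, and the WT squares of Slc7a8, Slc7a5 and Slc7a14 lie well to the right of their circles, while those of Slc3a1, Slc1a5 and Slc43a3 lie to the left.

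Differences are given as log2((KO + 1)/(WT + 1)) of the FPKM values, a scale that understates the change of low genes. On it 1 of 31 expressed members was past 2-fold above 0, or higher in the library labelled KO (3.23%), against 6.98% of the 12428 expressed genes. At least 2-fold lower were 3 members (9.68%), against 3.88% of all expressed genes. The median log2 difference was 0.04 over the members and 0.08 over all expressed genes, with quartiles of -0.55 and 0.40 for the members and of -0.35 and 0.51 for all genes. The sign of the members' median depends on the setting: it was -0.31 over the 23 members left by a floor of 5 FPKM (all genes 0.041), and -0.06, -0.04 and -0.10 when the libraries were scaled to 1000000 in all, by the median ratio or to equal sums outside the 20 highest genes. The split between directions depends on the scaling: higher genes made up 64.3% of all calls in the values as deposited, 46.5% after scaling both libraries to 1000000 in all, 52.0% after median-ratio scaling, 43.7% after equalising sums outside the 20 highest genes and 52.7% after the GC and length trend was taken out.

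Highly expressed members were mostly lower and weakly expressed ones mostly higher in the library labelled KO. Of 15 members with a mean of both libraries of at least 10 FPKM, 11 lay below 0, against 47.2% of the 5180 genes at that level, with a median log2 difference of -0.38 against 0.06. Of the 16 expressed members under that mean, 4 lay below 0, against 44.4% of 7248 genes, with a median of 0.28 against 0.10. The count of highly expressed members below 0 depends on the setting. It was 9 of 15 after the GC and length trend was taken out. With equal sums outside the 20 highest genes it was 12 of 15, and with sums of 1000000 it was 13 of 17. All 3 members past 2-fold below 0 were in the highly expressed set, where 5.68% of all genes were that far below and 9.21% that far above. The 1 member past 2-fold above 0 was in the weakly expressed set, where 5.39% of all genes were that far above and 2.59% that far below. Around the 2-fold limit, Slc7a5 lay just past it at -1.04, while Slc43a2 at -0.99, Slc1a5 at 0.98 and Slc7a1 at -0.92 lay just short of it.

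**Figure D2:**
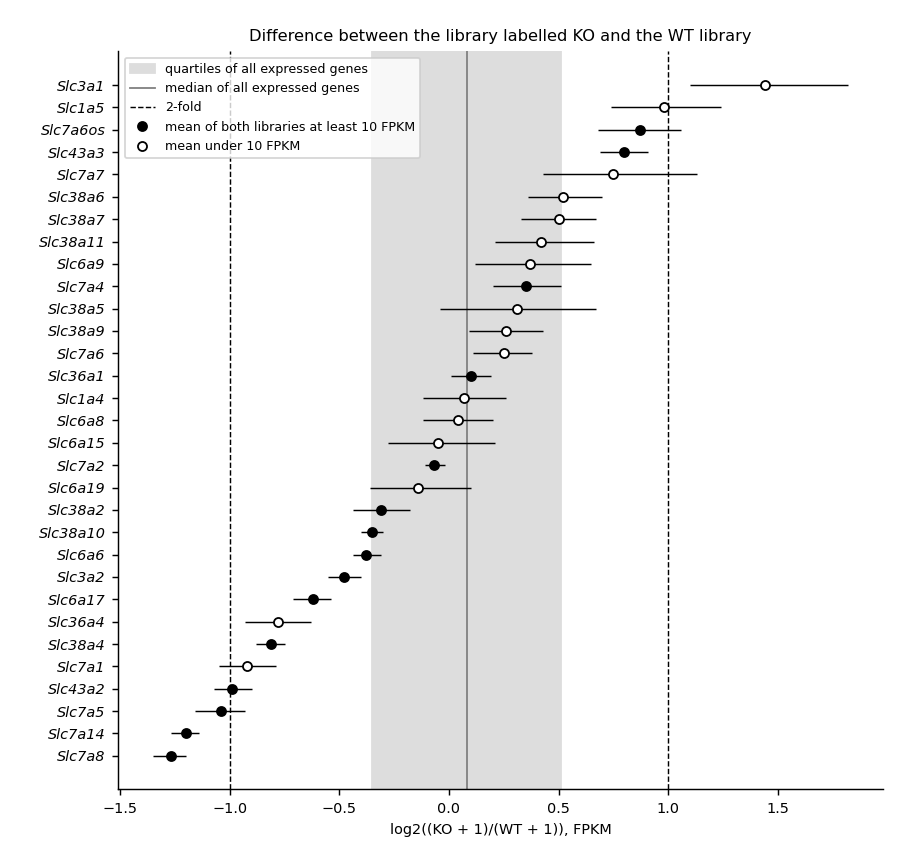
Difference between the library labelled KO and the WT library for each expressed member, as log2((KO + 1)/(WT + 1)), with exact 95% counting intervals as bars. Filled points have a mean of at least 10 FPKM and open points a lower one; the grey band spans the quartiles of all expressed genes, and dashed lines mark 2-fold. Slc7a8, Slc7a14 and Slc7a5 lie left of the lower dashed line and Slc3a1 right of the upper one.

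The Slc3 heavy chains differed in opposite directions. Slc3a2, the CD98 heavy chain that partners most light chains, had 12.3 FPKM in the library labelled KO, against 17.5 FPKM in the library labelled WT, 1.42-fold lower (1.34 to 1.51). Slc3a1, the heavy chain of the cystine and dibasic amino-acid carrier of kidney and gut, was at 5.61 against 1.43 FPKM, 3.92-fold higher (2.93 to 5.30), with a log2 difference of 1.44. It is the only member past 2-fold in that direction on the log2 scale. By plain ratio the expressed Slc7a7 (2.57, 1.81 to 3.71) and Slc1a5 (2.29, 1.89 to 2.79) also exceeded 2. The exons of Slc3a1 overlap those of Prepl on the opposite strand, which was at 37.3 against 59.8 FPKM. Exons of 9 expressed members overlap a gene on the opposite strand, Slc43a2, Slc7a2, Slc7a4, Slc6a6 and Slc38a10 among them, and with no strand setting known for the counting, reads in such overlaps are uncertain. Slc7a9, the light chain known to pair with Slc3a1, was not analysed here. Slc3a2 exceeded Slc3a1 in FPKM by 2.19 times in the library labelled KO, against 12.2 times in WT.

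Among the 4 expressed light chains, the carriers of large neutral amino acids, Slc7a5 and Slc7a8, stood lower in the library labelled KO, and Slc7a6 and Slc7a7 did not. Slc7a8 (LAT2), which exchanges small and large neutral amino acids, had 14.6 FPKM in the library labelled KO, against 36.7 FPKM in the library labelled WT, 2.51-fold lower (2.38 to 2.66). Slc7a5 (LAT1), which brings in leucine in exchange for glutamine, was at 15.4 against 32.8 FPKM, 2.13-fold lower (1.96 to 2.31), and its counting interval on the log2 scale, -1.16 to -0.93, reaches across the 2-fold limit. Slc7a6 and Slc7a7, which export cationic amino acids in exchange for neutral ones, were at 2.24 against 1.74 FPKM and 1.99 against 0.774 FPKM, with log2 differences of 0.25 and 0.75. Slc7a7 overlaps Oxa1l on the opposite strand. It is also known in macrophages, whose 12 markers were all higher in the library labelled KO. Whether either bears on the value of Slc7a7 was not tested. Slc7a11, the cystine-glutamate exchanger, stayed under 1 FPKM in both, at 0.641 against 0.275 FPKM, a ratio of 2.33 (1.63 to 3.38) from at least 87 and 49 reads.

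The light chains that pair with Slc3a2 (Slc7a5, Slc7a6, Slc7a7, Slc7a8 and Slc7a11) summed to 34.9 FPKM in the library labelled KO, against 72.3 FPKM in the library labelled WT. Divided by the FPKM of Slc3a2, this sum was 2.84 in the library labelled KO, against 4.13 in WT, so the sum differed more than Slc3a2. Among the summed genes only Slc7a5 and Slc7a8 were lower, while Slc7a6, Slc7a7 and Slc7a11 were higher. These are ratios of RNA and not of protein subunits. Slc7a8 stood at 0.948 times the FPKM of Slc7a5 in the library labelled KO, against 1.12 times in WT. Slc7a7 and Slc7a8 both lie on chromosome 14, at 54369442 to 54420068 and 54722215 to 54781886, and differed in opposite directions.

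The Slc43 family, which equilibrates large neutral amino acids without a heavy chain, was split. Slc43a2 (LAT4) had 11.2 FPKM in the library labelled KO, against 23.2 FPKM in the library labelled WT, 2.07-fold lower (1.93 to 2.21), with a log2 difference of -0.99 just short of the limit. Slc43a3, which carries nucleobases, was at 35.5 against 20.0 FPKM, a ratio of 1.78 (1.64 to 1.93). Slc43a1 (LAT3), the neighbour of Slc43a3 on chromosome 2, was at 0.233 against 0.109 FPKM. The 4 carriers of large neutral amino acids Slc7a5, Slc7a8, Slc43a1 and Slc43a2 together summed to 41.5 against 92.8 FPKM, which is 9.08% of the members' sum in the library labelled KO, against 16.3% in WT.

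The cationic carriers Slc7a1 and Slc7a2 differed unequally. Slc7a1 (CAT1), the widespread carrier of arginine and lysine, had 3.76 FPKM in the library labelled KO, against 8.02 FPKM in the library labelled WT, 2.13-fold lower (1.90 to 2.40), with a log2 difference of -0.92. Slc7a2 (CAT2) was at 50.6 against 53.0 FPKM, a log2 difference of -0.07, which became 0.38 after a lowess trend on transcript GC and length was taken out. Slc7a14, a lysosomal relative, was at 19.0 against 44.9 FPKM, 2.37-fold lower (2.27 to 2.48). After removal of the same trend its log2 difference was -0.86, against -1.20 in the values as deposited, and so no longer past the limit. Slc7a4, a relative with no settled substrate, was at 13.7 against 10.5 FPKM (log2 difference 0.35), and Slc7a3 stayed under 1 FPKM in both libraries. Slc7a2 supplied 57.6% of the FPKM of the 5 genes in the library labelled KO, against 45.3% in WT.

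In the Slc1 family both expressed members were neutral amino-acid exchangers. Slc1a5 (ASCT2), known for glutamine uptake, had 7.23 FPKM in the library labelled KO, against 3.16 FPKM in the library labelled WT, a ratio of 2.29 (1.89 to 2.79) and a log2 difference of 0.98. Slc1a4 (ASCT1) was at 5.01 against 4.73 FPKM, and the interval of its ratio, 0.903 to 1.24, includes 1. The glutamate carrier Slc1a1 (EAAT3) was at 0.791 against 0.448 FPKM. Slc1a5 is known to work beside Slc7a5, bringing in the glutamine that Slc7a5 exchanges for leucine. In FPKM it stood at 0.470 times Slc7a5 in the library labelled KO, against 0.0963 times in WT.

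The sodium-coupled system A carriers Slc38a2 and Slc38a4 were lower. Slc38a4 (SNAT4) had 40.3 FPKM in the library labelled KO, against 71.6 FPKM in the library labelled WT, 1.78-fold lower (1.70 to 1.86). Slc38a2 (SNAT2), which many cells induce when starved of amino acids, was at 20.9 against 26.2 FPKM, 1.25-fold lower (1.14 to 1.38), and at a log2 difference of 0.03 once the same trend was taken out. The other system A gene, Slc38a1, was under 1 FPKM in both. All 3 lie on chromosome 15 between 96571418 and 97055956. The system N carrier Slc38a5, which in mice is known as a marker of α-cells and their growth, was at 7.66 against 5.999 FPKM, and the interval of its ratio, 0.965 to 1.69, includes 1. That interval rests on the smallest reads the values allow, 104 and 107, and is too wide if the true reads are a multiple of these.

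The other Slc38 members, placed in lysosomes or not yet well characterised, lay above 0 apart from Slc38a10. Slc38a10 had 62.2 FPKM in the library labelled KO, against 79.8 FPKM in the library labelled WT, 1.28-fold lower (1.24 to 1.33). Slc38a7, which exports glutamine and asparagine from lysosomes, was at 10.1 against 6.84 FPKM, a ratio of 1.475 (1.30 to 1.675). Slc38a9, the lysosomal arginine sensor upstream of mTORC1, was at 1.61 against 1.19 FPKM, a ratio of 1.36 (1.12 to 1.64). Slc38a6 and Slc38a11 had log2 differences of 0.52 and 0.42. Of the proton-coupled Slc36 carriers, Slc36a1 (PAT1) was at 21.1 against 19.6 FPKM, a log2 difference of 0.10 that turned negative under 2 of 6 alternative settings. Slc36a4 was at 4.28 against 8.07 FPKM, with a log2 difference of -0.78, and of -0.34 after that trend was taken out.

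None of the 4 expressed Slc6 amino-acid carriers or the 2 expressed taurine and creatine carriers was past 2-fold. Over all expressed genes 6.98% were above and 3.88% below that limit, so with so few carriers the absence of calls says little. Slc6a6, the taurine carrier and the highest of the family, had 28.8 FPKM in the library labelled KO, against 37.7 FPKM in the library labelled WT, 1.31-fold lower (1.25 to 1.37). Slc6a17, which loads neutral amino acids into synaptic vesicles in brain, was at 15.5 against 24.3 FPKM, 1.57-fold lower (1.48 to 1.68). The creatine carrier Slc6a8 was at 8.01 against 7.79 FPKM, and the interval of its ratio, 0.908 to 1.16, includes 1. The epithelial carrier Slc6a19 (1.87 against 2.15 FPKM) and the branched-chain and proline carrier Slc6a15 (1.32 against 1.40 FPKM) had intervals that include 1 as well. The glycine carrier Slc6a9 was at 2.21 against 1.48 FPKM, and its exons overlap B4galt2 and Ccdc24. Cltrn (collectrin), a β-cell membrane protein known in kidney as the partner of Slc6a19, was at 308 against 399 FPKM.

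The other 25 members were under 1 FPKM in both libraries. Of these 20 were under 0.3 FPKM in both, and 6 were listed at 0 in the library labelled KO, against 3 in WT. They include the monoamine carriers Slc6a2, Slc6a3 and Slc6a4, the GABA carrier Slc6a11, and the glial glutamate carriers Slc1a2 and Slc1a3. Slc6a4, the serotonin carrier, had 0.200 FPKM in the library labelled KO, against 0.0953 FPKM in the library labelled WT, from at least 8 and 5 reads, and the interval of the ratio, 0.606 to 8.17, includes 1. Slc38a3, the liver and kidney system N carrier, was at 0.0680 against 0.276 FPKM, from at least 3 and 16 reads (ratio 0.246, 0.0460 to 0.861). The expressed Slc7a6os, which encodes no transporter, was at 23.6 against 12.5 FPKM (ratio 1.89, 1.65 to 2.17), while its neighbour Slc7a6 was at 2.24 against 1.74 FPKM.

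Several of these genes are known targets of ATF4, the transcription factor that amino-acid shortage and eIF2 kinases induce, so the promoter windows of members were searched for the core of the amino-acid response element. The strict core was TGATGCAA on either strand (TTGCATCA on the other), and the looser form was TGATGNAA, which includes the strict one. RefSeq windows of 300 bases on GRCm38.p6, from 250 before the start site to 50 after it, were at hand for 41 of the 56 members (59 windows). The strict core was in 4 member windows (6.78%), against 0.895% of all 32851 windows. Both Slc7a7 windows among these 4 overlap and hold the same 8 bases, so by gene the core was in 3 of 41 members, against 1.03% of all genes in the table. The looser form was in 5 member windows (8.47%), against 3.97% of all windows, or in 4 of 41 members, against 4.51% of all genes. Of the known ATF4 targets, Slc3a2, Slc7a1, Slc38a2 and Slc6a9 had windows that held neither form. Slc7a5, Slc1a5, Slc43a3 and Slc7a2 are among the 15 members whose windows were not analysed here. A match describes letters only and is not evidence of binding.

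The windows with the strict core are shown with the core in capitals, each read 5′ to 3′ on the gene's strand. Slc7a11 holds it on both strands, at 66 and 47 bases before the start site, on the minus strand at chr3:50443614-50443863. Slc1a4 (minus strand, chr11:20332710-20332769) and Slc7a7 (minus strand, chr14:54417938-54417997) are given as the 60 bases that end with it, which lies at the start site. The level of Slc7a11 was under 1 FPKM in both libraries, and the log2 differences of Slc1a4 and Slc7a7 were 0.07 and 0.75.
Slc7a11: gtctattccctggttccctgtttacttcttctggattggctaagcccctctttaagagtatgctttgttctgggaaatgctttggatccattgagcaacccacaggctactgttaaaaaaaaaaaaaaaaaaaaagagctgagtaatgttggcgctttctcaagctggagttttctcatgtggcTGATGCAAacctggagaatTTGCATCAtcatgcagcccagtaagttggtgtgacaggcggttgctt
Slc1a4: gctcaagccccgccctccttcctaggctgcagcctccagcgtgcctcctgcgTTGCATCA
Slc7a7: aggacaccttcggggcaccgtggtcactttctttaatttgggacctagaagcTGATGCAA

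The windows of Slc7a8 and Slc7a14, both past 2-fold below 0, and of Slc3a1, past 2-fold above 0, did not hold the strict or the looser core. Their 250 bases before the start site are shown in lower case because there is no match to mark. They lie on the minus strand at chr14:54781887-54782136 for Slc7a8, on the minus strand at chr3:31310320-31310569 for Slc7a14 and on the plus strand at chr17:85028097-85028346 for Slc3a1. Their GC content differs, at 55.6%, 66.8% and 45.6% in that order.
Slc7a8: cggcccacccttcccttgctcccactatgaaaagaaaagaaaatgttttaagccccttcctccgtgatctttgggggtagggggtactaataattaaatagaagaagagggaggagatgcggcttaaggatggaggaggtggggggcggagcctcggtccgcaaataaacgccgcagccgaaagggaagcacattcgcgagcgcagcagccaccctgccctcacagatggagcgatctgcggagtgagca
Slc7a14: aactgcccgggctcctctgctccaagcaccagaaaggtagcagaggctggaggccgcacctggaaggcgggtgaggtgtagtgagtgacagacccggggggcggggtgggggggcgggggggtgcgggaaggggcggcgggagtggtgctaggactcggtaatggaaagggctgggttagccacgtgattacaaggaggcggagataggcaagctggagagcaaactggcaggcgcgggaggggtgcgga
Slc3a1: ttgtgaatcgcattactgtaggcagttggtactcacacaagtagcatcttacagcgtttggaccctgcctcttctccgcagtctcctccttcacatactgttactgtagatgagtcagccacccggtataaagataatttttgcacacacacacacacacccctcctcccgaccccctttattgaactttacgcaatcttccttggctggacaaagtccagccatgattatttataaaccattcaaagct

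Members known as ATF4 targets did not share a direction. Of 9 such genes 7 were expressed, 4 below 0 and 3 above it, against 45.6% of all expressed genes below 0. The median log2 difference over the 7 was -0.31. Of the 7, 1 (Slc7a5) was at least 2-fold lower, against 3.88% of all expressed genes. Slc7a5, Slc7a1, Slc3a2 and Slc38a2 lay below 0, and Slc1a5, Slc6a9 and Slc1a4 above it. The sign of Slc38a2 turned when the GC and length trend was removed, and that of Slc1a4 under 4 of 6 settings.

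Other genes of amino-acid sensing and use were read from 8 lists, which together held 139 expressed genes when shared genes are counted once. Past the 2-fold limit were 5 of them above and 10 below 0, against 6.98% and 3.88% of all expressed genes. Of 22 expressed ATF4 and amino-acid response genes 1 was at least 2-fold lower and 15 lay below 0, against 45.6% of all expressed genes below 0, with a median of -0.25. That gene was Aldh1l2, a mitochondrial folate enzyme, at 1.80 FPKM in the library labelled KO, against 6.92 FPKM in the library labelled WT. The stress gene Nupr1 (-0.87), the serine synthesis enzyme Phgdh (-0.84) and the C/EBP-family factor Ddit3 (0.83) were the next widest. Among 13 regulators of eIF2, the endoplasmic reticulum kinase Eif2ak3 (PERK) was lower, at 8.75 against 21.3 FPKM, and the amino-acid sensing kinase Eif2ak4 (GCN2) was at a log2 difference of -0.03.

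In the mTORC1 sensing list 3 of 33 expressed genes were at least 2-fold lower (all expressed genes 3.88%) and 1 was higher (all 6.98%). Sesn3, a sestrin, had 5.16 FPKM in the library labelled KO, against 16.9 FPKM in the library labelled WT. The Rag GTPase Rragd was at 7.13 against 19.0 FPKM and the arginine-sensor paralog Castor2 at 16.2 against 35.3 FPKM. Lamtor4, a subunit of the Ragulator complex that anchors Rag GTPases on lysosomes, was higher at 68.6 against 31.1 FPKM. None of 23 aminoacyl-tRNA synthetase and scaffold genes was past 2-fold, against 6.98% of all expressed genes above and 3.88% below that limit. Of the 23, 15 lay below 0, against 45.6% of all, with a median of -0.22. The widest were Dars (-0.80), Cars (0.78), Eprs (-0.66) and Nars (-0.58).

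Enzymes that use the carried amino acids differed in both directions. Of 16 expressed genes for glutamate, glutamine and GABA enzymes, glutamine synthetase Glul (103 against 216 FPKM) and GABA transaminase Abat (13.1 against 30.4 FPKM) lay past 2-fold below 0, and alanine transaminase Gpt (17.04 against 4.86 FPKM) was higher. Of 16 genes of branched-chain catabolism, Bckdhb, a subunit of the branched-chain keto acid dehydrogenase, was higher at 20.5 against 6.84 FPKM and the propionyl-CoA carboxylase subunit Pcca lower at 4.01 against 9.28 FPKM. Of 9 genes of cystine use and glutathione synthesis, Ggt7 (1.16) and Cbs (1.03) were higher and Gclm (-1.16), the modifier subunit of glutamate-cysteine ligase, was lower. Of 11 expressed partner proteins and other amino-acid transporters only Slc16a10, the aromatic amino-acid carrier TAT1, was past the limit, at 20.7 against 48.2 FPKM, 2.33-fold lower. Across the 12428 expressed genes, 6.98% lay that far above 0 and 3.88% that far below. With only 9 to 16 genes in each of these lists, such small numbers of calls say little about a list.

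**Figure D3:**
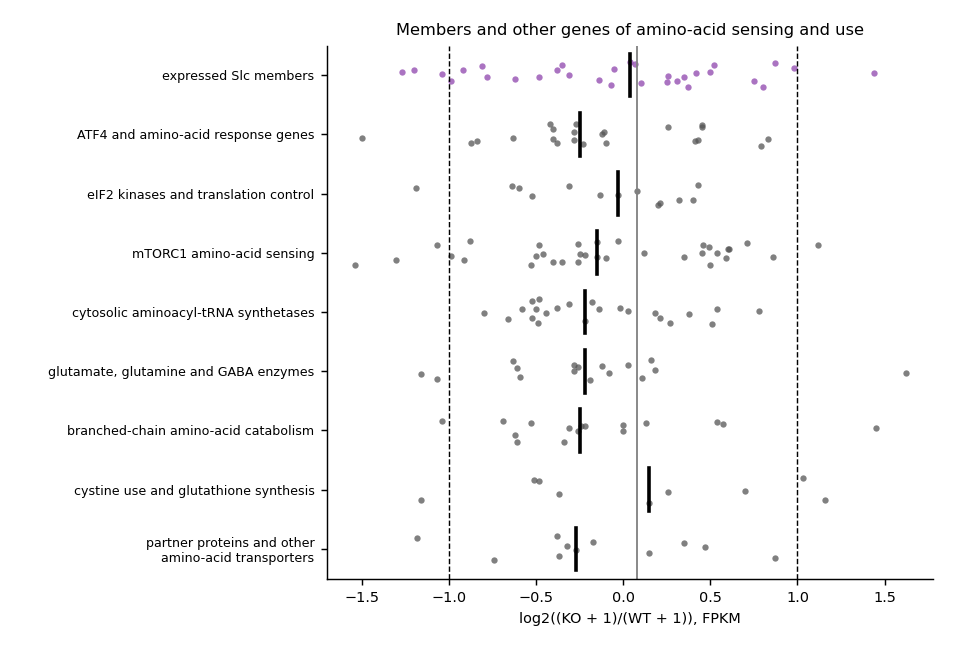
Each point is a gene, placed by its log2((KO + 1)/(WT + 1)) in FPKM; the top row holds the 31 expressed members and the rows under it the 8 other lists. Black bars are medians, the grey line is the median of all expressed genes at 0.08, and dashed lines mark 2-fold. Medians run from -0.27 to 0.15, and most points lie within 2-fold.

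The difference between the libraries followed GC content across all genes. The 4069 expressed genes with transcript GC content up to 47.3% had a median log2 difference of -0.24, the 4068 between that and 53.7% had 0.05, and the 4069 above had 0.40. The members' medians in the same ranges were -0.07 over 9 genes, 0.09 over 14 and 0.19 over 8. Transcript length differed as well, with a median of 1859 nucleotides over all genes at least 2-fold higher and 4306 over those at least 2-fold lower. Over all expressed genes it was 3109. Taking out the trend with both GC content and length brought some members nearer 0 and others further from it. Slc38a4 was then at -0.51, against -0.81 before, and Slc7a6os at 0.39, against 0.87. Slc7a5 (56.3% GC) was at -1.35, against -1.04, and Slc43a2 (53.4% GC) at -0.98, against -0.99. Slc7a8 (52.8% GC) was then at -1.36 and Slc3a1 (48.4% GC) at 1.44, both still past 2-fold. Slc1a5 was at 0.62 and Slc7a1 at -0.80 after the same step. What part GC content or length has in the differences was not tested, and the values above do not separate them.

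**Figure D4:**
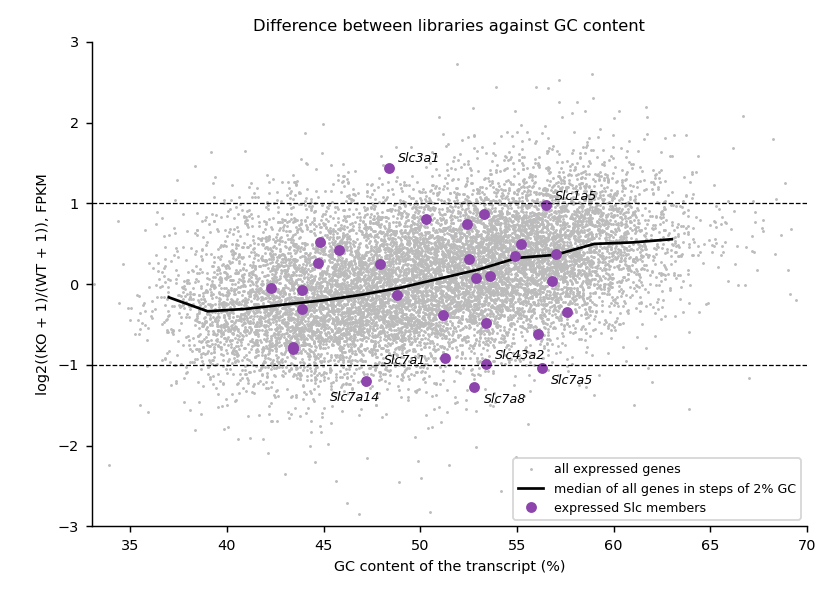
GC content of the longest coding transcript (%) against log2((KO + 1)/(WT + 1)) in FPKM, with grey dots for all expressed genes and purple points for the members; 24 of 12206 genes lie outside the axes. The black line, the median of all genes in steps of 2% GC, climbs from left to right, and Slc7a5, Slc43a2 and Slc7a8 lie below it while Slc3a1 lies above it.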

How the data were processed

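The authors deposited 1 table of FPKM values per gene symbol, with 1 column per library. Per the labels' protocols, islet RNA was made into libraries with the SMARTER kit, and the build was GRCm38 (mm10), per the submitters' processing notes. For the aligner, counter, annotation, strand setting and any filter, nothing is given in the sources used here. FPKM values were used as deposited. Library totals and whole reads were recovered from the steps of the values: whole numbers, to within 1e-05 plus 1e-09 of the number, resulted for 17178 of 17245 genes (99.6%), over lengths from 60 to 30000 nucleotides. The smallest whole reads were used, so an interval can be too wide. On simulated data the search found both totals, and the reads were a divisor of the true ones for 99.96% of 2833 genes and equal to them for 84.82%; for the rest the intervals are too wide. Ratios have exact Clopper-Pearson 95% intervals and single levels exact Poisson intervals. They cover counting error only and take reads as independent. PCR copies of a molecule are not independent, which makes the intervals too narrow by an unknown amount. No test was run, since each genotype has 1 library. The call was tried on simulated data only with planted changes larger than 2-fold. That trial does not bear on members near the 2-fold limit or on the spread between animals.

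For GC content and length each gene was represented by its longest coding GENCODE transcript, or else the longest. They covered 12206 of 12428 expressed genes. The trend was removed by lowess (fraction 0.3, 3 iterations), GC content first, log2 length second. Coordinates and promoter windows are RefSeq's on GRCm38.p6. Alternatives were pseudocounts of 0.1 and 5 FPKM, no floor and a floor of 5 FPKM, 3 scalings, this trend removal, 2 narrower sets of members, and the mean in place of the median. The members, the lists and the alternatives were chosen with earlier results of these data known. Members with at least 10 FPKM in either library, or past 2-fold, are given in full, and from each list up to 4 genes with the widest differences, plus Eif2ak4 and Cltrn, added for their role after their values were seen. Some genes of the lists are not reported here by name. Python 3.11.15, numpy 2.4.6, pandas 2.3.3, scipy 1.17.1, statsmodels 0.14.6 and matplotlib 3.10.9 were used.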

Additional observations from a re-analysis of the deposited data

How the results depend on the processing

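Of 31 expressed members, 25 kept their sign in the 6 settings that can change a gene's value, and Slc1a4, Slc36a1, Slc38a2, Slc6a15, Slc6a8 and Slc7a2 did not. Slc7a8 stayed at least 2-fold lower in all 6, and Slc7a5, Slc7a14 and Slc3a1 stayed past the limit in 5, with lowest sizes of -0.89, -0.86 and 0.72. The count of members at least 2-fold higher was 3 with a pseudocount of 0.1 FPKM, 0 with a pseudocount of 5 FPKM and 0 without members whose exons overlap another gene, since that leaves out Slc3a1. The count at least 2-fold lower was 3 in the values as deposited. It was 5 with a pseudocount of 0.1 FPKM and 5 with each library scaled to a sum of 1000000. With equal sums without the 20 highest genes it was also 5, and with the median ratio 4. It was 2 with a pseudocount of 5 FPKM and 2 after the GC and length trend was taken out. Of the members with a mean of at least 10 FPKM, 7 of 10 lay below 0 when those overlapping another gene were left out, fewer by construction. For the other lists together, the count at least 2-fold higher was 8 and 3 with pseudocounts of 0.1 and 5 FPKM, 3 under either of those scalings and 3 without the GC and length trend. The count at least 2-fold lower was 3 with a pseudocount of 5 FPKM. Their median was -0.36 under either of those scalings and -0.30 with the median ratio, against -0.22. These scalings moved the median of all expressed genes to -0.039, -0.059 and -0.004, against 0.077, so part of each shift is common to all genes. Calls over the whole table numbered 868 above and 482 below the limits, against 1556 and 716 with a pseudocount of 0.1 FPKM, 305 and 181 with 5 FPKM, 693 and 796 with sums of 1000000, 555 and 714 with equal sums, and 394 and 354 without the trend. Cgas was at 1.03 with a pseudocount of 0.1 FPKM, against 0.34. The cause of the other changes was not tested. No paired analysis was possible because each genotype has 1 library, and none could be left out in turn. A comparison of protein sequences named among the planned descriptions was not run. With 1 library each, depth also limits what can be said of members under 1 FPKM.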
